A study of Mus musculus with 6 samples.

Results

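The 9 genes described here encode receptor chains for interleukins 6, 27, 12, 18, 33 and 25: Il6ra, Il6st, Il27ra, Il12rb1, Il12rb2, Il18r1, Il18rap, Il1rl1 and Il17rb. They were chosen by name, as chains of a few receptor families that helper T cells use, and make up 9 of the 38216 different gene symbols in the expression table. RNA came from CD4+ cells of the spleen of C57BL/6 mice on postnatal day 28. All mice carried an IL21-VFP reporter, in which a fluorescent protein marks cells that transcribe Il21, and the mice were described as naive. The pool called N was sorted as VFP-ICOS-, the pool called ACT as VFP-ICOS+ and the pool called ACT IL21 as VFP+ICOS+, where ICOS is a costimulatory receptor raised on activated T cells. Each pool was sequenced as 2 libraries, and how many mice went into a pool is not given in the sources used here.

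The values are TPM, a unit of transcript abundance, a level corrected for transcript length, so that levels of different genes can be set beside each other within a library. The number of reads behind them is unknown. Each library held between 12095 and 12396 genes at 1 TPM or more. The genes used for the sort check the labels and are no finding. Icos lay at 31.9 to 35.7 TPM in N, 241 to 254 in ACT and 185 to 227 in ACT IL21. Il21 had values of 0 in N, of 0 and 1.26 TPM in the ACT libraries, and of 44.5 and 51.9 TPM in those of ACT IL21. Cd4 lay at 316 to 358 TPM in N, 236 to 268 in ACT and 534 to 567 in ACT IL21, so it was lowest in ACT. In bulk samples such as these, fewer cells of a type and less RNA per cell cannot be told apart.

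As background, these receptors work in pairs of chains. The IL-6 receptor alpha chain binds the cytokine and then recruits gp130, the product of Il6st, which also pairs with the IL-27 receptor alpha chain and signals through JAK kinases and STAT factors. Il12rb1 and Il12rb2 encode the chains of the IL-12 receptor, which activates STAT4 and type 1 helper responses, and the Il12rb1 chain is shared with the IL-23 receptor. Il18r1 and Il18rap encode the binding and accessory chains of the IL-18 receptor, and Il1rl1 encodes ST2, the receptor for the alarmin IL-33; both signal through MyD88. Il17rb encodes the chain that binds IL-25, an alarmin that acts with the Il17ra chain and the adaptor Act1.

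Upstream sequence from RefSeq (build GRCm38.p6) was matched by symbol for 7 of the 9 members. The sequences printed here are the bases directly before the start of 5 members that rose in ACT, up to 250 bases and only as far as they lie in no annotated exon, shown because these genes rose together. Where RefSeq lists several starts, as for Il1rl1 and Il18r1, the first is shown. They are printed 5′ to 3′ on the gene's strand in lower case, with matches to 5 searched motifs in capitals. The windows are chr6:67376189-67376438 (minus strand) for Il12rb2, chr1:40465416-40465551 (plus) for Il18r1, chr1:40515112-40515361 (plus) for Il18rap, chr1:40429320-40429569 (plus) for the first start of Il1rl1 and chr14:30008897-30009022 (minus) for Il17rb.
Il12rb2: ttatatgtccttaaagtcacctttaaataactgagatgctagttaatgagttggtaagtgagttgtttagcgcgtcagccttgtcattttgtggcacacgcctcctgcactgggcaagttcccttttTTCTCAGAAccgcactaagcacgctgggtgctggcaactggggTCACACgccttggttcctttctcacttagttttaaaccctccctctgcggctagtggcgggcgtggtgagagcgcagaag
Il18r1: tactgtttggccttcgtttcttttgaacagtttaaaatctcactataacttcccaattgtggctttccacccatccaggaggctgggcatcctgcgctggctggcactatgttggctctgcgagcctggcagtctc
Il18rap: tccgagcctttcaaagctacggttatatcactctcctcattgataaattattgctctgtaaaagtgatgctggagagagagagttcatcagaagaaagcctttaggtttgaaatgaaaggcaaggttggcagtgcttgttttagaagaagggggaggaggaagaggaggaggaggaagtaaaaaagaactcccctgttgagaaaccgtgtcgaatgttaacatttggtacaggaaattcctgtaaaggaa
Il1rl1: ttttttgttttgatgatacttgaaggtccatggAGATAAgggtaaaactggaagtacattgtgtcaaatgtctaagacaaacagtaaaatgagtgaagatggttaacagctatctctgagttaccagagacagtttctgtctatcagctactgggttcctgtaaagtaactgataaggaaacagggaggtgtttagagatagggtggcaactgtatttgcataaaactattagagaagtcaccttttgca
Il17rb: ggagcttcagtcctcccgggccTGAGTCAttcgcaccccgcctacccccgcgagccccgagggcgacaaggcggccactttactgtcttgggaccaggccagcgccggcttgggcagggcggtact

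The motifs searched, on both strands of the 250 bases before each start, were TTCNNNGAA for STAT factors, TGANTCA for AP-1, AGATAA for the factors of the GATA family, TGTGGT for RUNX factors and GTGTGA for T-box factors. Il12rb2 held TTCNNNGAA at 123 to 115 bases before the start, and GTGTGA on the opposite strand at 80 to 75 bases. Il17rb held TGANTCA at 104 to 98 bases, and Il1rl1 held AGATAA at 217 to 212 bases before its first start. The windows printed for Il18r1 and Il18rap held none of the 5 motifs. The window at another listed Il18r1 start, not printed, held TTCNNNGAA at 219 to 211 and at 152 to 144 bases. The window at the second Il1rl1 start, also not printed, held AGATAA on the opposite strand at 103 to 98 bases and TGTGGT at 6 to 1 bases. Of the members that fell, Il6ra held AGATAA on the opposite strand at 245 to 240 bases and Il6st held none. No match overlapped another. Across all 32851 promoters in the table, 7.02% held TTCNNNGAA, 6.75% TGANTCA, 9.99% AGATAA, 14.0% TGTGGT and 12.3% GTGTGA. A match is only a description of the letters. Base composition differed widely among the members. The 250 bases before the first Il1rl1 start held 0 CpG dinucleotides and those of Il18rap 4, and the window at the first Il18r1 start held 3, against a median of 6 over all promoters. Il12rb2 held 10, and Il17rb held 27. The windows of the gp130 family members Il6ra and Il6st, which fell in ACT, held 18 and 26.

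Comparing ACT with N asks which receptor RNAs differ between ICOS+ cells without the reporter and ICOS- cells. In ACT, 6 of the 9 members rose: the IL-12 receptor chains Il12rb1 and Il12rb2, the IL-18 receptor chains Il18r1 and Il18rap, the IL-33 receptor Il1rl1 and the IL-25 receptor chain Il17rb. The gp130 family members Il6ra and Il6st fell, and Il27ra did not pass the test. Differences were tested with limma on log2(TPM + 1) across 13311 genes, with a Benjamini-Hochberg adjusted p under 0.05 as the threshold. In the same comparison 4.15% of all genes tested rose and 1.43% fell. The median log2 difference was 2.60 over the 9 members and 0.02 over all genes tested. With 2 libraries a pool, lack of overlap between pools was common. Both ACT libraries lay above both N libraries in 25.2% of all genes tested and below them in 21.9%. These shares were 31.5% and 19.9% for ACT IL21 against N, and 24.5% and 17.3% for ACT IL21 against ACT. All 9 members passed the filter of 1 TPM in 2 libraries, and 8 of them reached 1 TPM in all 6 libraries. Il1rl1 passed the filter only through the libraries where it was high, and without it 5 members rose.

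**Figure D1:**
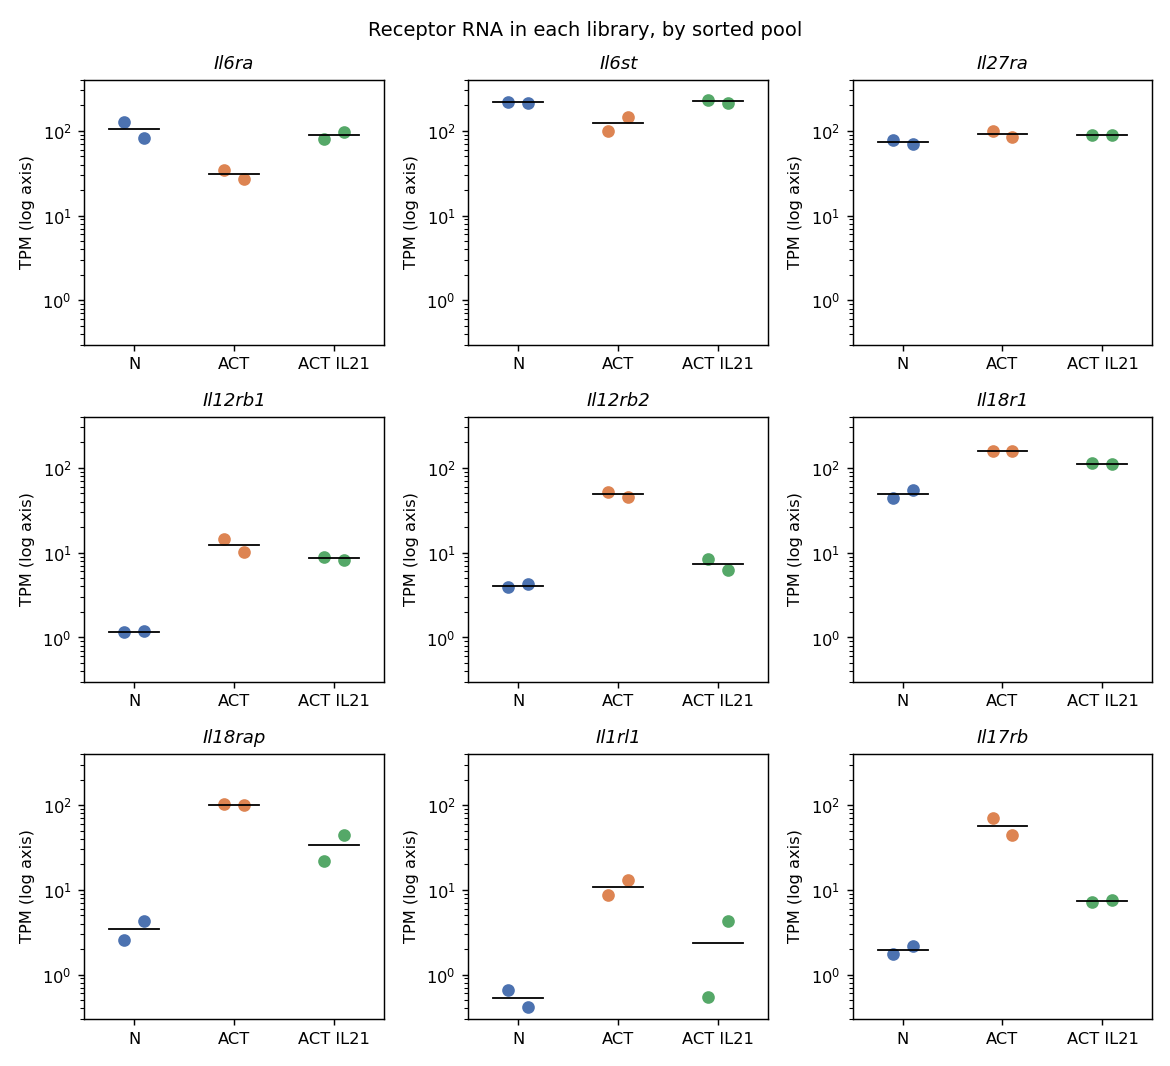
TPM of each of the 9 members on a log axis, with 1 point per library and a line at the mean of the 2 libraries of a pool. Il12rb2, Il18rap and Il17rb lie below 5 TPM in N and between 43.8 and 102 TPM in ACT, while Il6ra is lowest in ACT.

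Il6ra, the IL-6 binding chain, stood at 126 and 82.0 TPM in the N libraries, 34.8 and 27.3 in ACT, and 80.7 and 97.2 in ACT IL21. Both ACT libraries lay below the other 4, and the N and ACT IL21 libraries overlapped. The mean N level was 3.35 times the ACT mean. Il6ra fell by 1.69 on the log2 scale in ACT relative to N (SE 0.25, 95% interval -2.26 to -1.12, adjusted p = 0.00706). Without N replicate 1 the adjusted p was 0.0865, the highest of a range from 0.00494 over the alternatives. The difference between ACT IL21 and N was -0.20 (interval -0.77 to 0.37, adjusted p = 0.743).

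Between the ICOS+ pools, Il6ra was higher in ACT IL21 by 1.49 on the log2 scale (SE 0.25, interval 0.92 to 2.06, adjusted p = 0.0258). This call ended with any 1 of the 6 libraries left out, with adjusted p between 0.0578 and 0.266. It also ended with no filter on low values (0.0816), without the intensity trend (0.101) and with the N libraries left out of the model (0.0628). The lowest adjusted p over the alternatives was 0.0206.

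Il6st, the gene of the shared signalling chain gp130, was the most abundant member in N and in ACT IL21. Its levels were 219 and 214 TPM in N, 99.7 and 146 in ACT, and 231 and 213 in ACT IL21. The ACT libraries again lay below the other 4, but they also differed most from each other. Il6st fell by 0.84 on the log2 scale in ACT relative to N (SE 0.19, interval -1.28 to -0.39, adjusted p = 0.0487). This value lay close to the threshold and was lost in 9 of the 15 alternatives, and over all 15 the adjusted p ranged from 0.0197 to 0.2785. Leaving out N replicate 1 gave 0.2785 and leaving out N replicate 2 gave 0.2645. Leaving out ACT replicate 1 gave 0.1204, and the ACT IL21 replicates gave 0.1304 and 0.131. The other alternatives that ended it were the smaller pseudocount, no filter, no intensity trend and the fit of N and ACT alone. Il6st was 0.87 higher in ACT IL21 than in ACT (interval 0.42 to 1.32), with an adjusted p of 0.0730 that did not pass.

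Il27ra, which pairs with gp130 in the IL-27 receptor, varied least over the 6 libraries. It stood at 77.1 and 68.9 TPM in N, 101 and 83.8 in ACT, and 88.2 and 88.7 in ACT IL21. Both ICOS+ pools lay above N, and the ACT IL21 libraries lay within the ACT range. No comparison passed the threshold: the log2 differences were 0.33 for ACT against N (interval -0.06 to 0.72, adjusted p = 0.355), 0.28 for ACT IL21 against N (interval -0.11 to 0.66, adjusted p = 0.449) and -0.05 between the ICOS+ pools (interval -0.44 to 0.33, adjusted p = 0.916).

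Il12rb1, the chain shared by the IL-12 and IL-23 receptors, stood at 1.16 and 1.18 TPM in N, 14.6 and 10.1 in ACT, and 8.97 and 8.19 in ACT IL21. The libraries of the 3 pools did not overlap, and both ICOS+ pools lay well above N. It rose by 2.60 on the log2 scale in ACT (SE 0.38, interval 1.71 to 3.49, adjusted p = 0.00736) and by 2.14 in ACT IL21 (interval 1.25 to 3.03, adjusted p = 0.0191). Because its N level was near 1 TPM, the size depended on the pseudocount: with 5 in place of 1, these values were 1.48 and 1.14. The call in ACT ended without N replicate 1 (adjusted p = 0.0916) or N replicate 2 (0.0901), in a range from 0.00610 over the alternatives. The call in ACT IL21 ended without either N replicate (0.159 and 0.1715), without either ACT IL21 replicate (0.148 and 0.1345) and with no filter (0.0646), in a range from 0.0162.

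Il12rb2, the signalling chain of the IL-12 receptor, separated ACT from both other pools. Its levels were 3.94 and 4.23 TPM in N, 52.1 and 45.6 in ACT, and 8.35 and 6.29 in ACT IL21. The mean ACT level was 12.0 times that of N and 6.67 times that of ACT IL21. Il12rb2 rose in ACT relative to N by 3.29 on the log2 scale (SE 0.30, interval 2.58 to 4.00, adjusted p = 0.000914), and this call held in every alternative run, with adjusted p up to 0.0218. The difference between ACT IL21 and N was 0.70 (interval -0.01 to 1.41, adjusted p = 0.272).

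Between the ICOS+ pools, Il12rb2 fell by 2.59 on the log2 scale in ACT IL21 (interval -3.30 to -1.88, adjusted p = 0.00757). This call ended without ACT replicate 1 (adjusted p = 0.0693), ACT replicate 2 (0.0523), ACT IL21 replicate 1 (0.0867) or ACT IL21 replicate 2 (0.1247), in a range from 0.00460. Il12rb2 lies on the minus strand of chromosome 6 (67291318 to 67376188, GRCm38), where 1519 of its 3794 annotated exonic bases, or 40.0%, are also exons of Serbp1 on the other strand. Serbp1, which encodes an RNA-binding protein, lay between 154 and 214 TPM in all 6 libraries. Without a stated strand setting, reads from the shared bases cannot be told apart.

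Il18r1, the IL-18 binding chain, was already abundant in N. It stood at 44.6 and 54.7 TPM in N, 159 and 159 in ACT, and 113 and 111 in ACT IL21. Libraries of a pool lay close together and the pools did not overlap. Il18r1 rose by 1.67 on the log2 scale in ACT (SE 0.16, interval 1.29 to 2.05, adjusted p = 0.00113), a call that held in every alternative run, with adjusted p up to 0.0219. In ACT IL21 it rose by 1.16 relative to N (interval 0.79 to 1.54, adjusted p = 0.00683). That call was lost when N replicate 1 (adjusted p = 0.0854), ACT IL21 replicate 1 (0.1026) or ACT IL21 replicate 2 (0.0973) was left out, and without the intensity trend (0.054), in a range from 0.00513. The ICOS+ pools differed by -0.51 (interval -0.88 to -0.13), with an adjusted p of 0.196 that did not pass.

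Il18rap, the accessory chain that IL-18 signalling needs, had the largest log2 difference of the 9 members between ACT and N, except without ACT replicate 2, where Il17rb (4.58) lay just above it (4.57). Its levels were 2.55 and 4.26 TPM in N, 102 and 101 in ACT, and 22.0 and 44.9 in ACT IL21. The pools did not overlap, and the ACT IL21 libraries differed from each other more than those of ACT did. Il18rap rose by 4.56 on the log2 scale in ACT (SE 0.36, interval 3.72 to 5.40, adjusted p = 0.000509), and the call held in every alternative run, with adjusted p up to 0.0126. In ACT IL21 it rose by 2.91 relative to N (interval 2.07 to 3.75, adjusted p = 0.00452). That call ended without N replicate 1 (adjusted p = 0.0633) or ACT IL21 replicate 2 (0.0684), in a range from 0.00178. Between the ICOS+ pools the difference was -1.65 (interval -2.49 to -0.81, adjusted p = 0.0716). It passed with a pseudocount of 5 (adjusted p = 0.0454) and with the replicate number as a block (0.0359), and reached 0.290 at most.

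Il1rl1, the gene of the IL-33 receptor ST2, had the lowest mean level of the members in each pool. It stood at 0.65 and 0.42 TPM in N, 8.69 and 13.0 in ACT, and 0.54 and 4.24 in ACT IL21. Both ACT libraries lay above all others, and 1 ACT IL21 library lay within the N range while the other lay above it. The difference between ACT and N was 2.93 on the log2 scale (SE 0.62, interval 1.496 to 4.36, adjusted p = 0.03498), or 1.504 with a pseudocount of 5. Since the filter admitted Il1rl1 through its high libraries, this p is no independent support. The call ended without N replicate 1 (adjusted p = 0.209), N replicate 2 (0.2517), ACT replicate 1 (0.0956) or ACT replicate 2 (0.131), with a pseudocount of 0.1 (0.061), with no filter (0.106) and with no intensity trend (0.0617), in a range from 0.0231. The other differences did not pass, at 0.89 for ACT IL21 against N (interval -0.54 to 2.32, adjusted p = 0.512) and -2.04 between the ICOS+ pools (interval -3.47 to -0.60, adjusted p = 0.173).

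Il17rb, the IL-25 binding chain, stood at 1.75 and 2.18 TPM in N, 69.7 and 43.8 in ACT, and 7.13 and 7.57 in ACT IL21. The pools did not overlap, with ACT highest and ACT IL21 between. The mean ACT level was 28.9 times that of N and 7.73 times that of ACT IL21. Il17rb rose in ACT relative to N by 4.25 on the log2 scale (SE 0.35, interval 3.44 to 5.06, adjusted p = 0.000571), and the call held in every alternative run, with adjusted p up to 0.0143. Relative to N, the difference in ACT IL21 was 1.497 (interval 0.69 to 2.30) with an adjusted p of 0.0530. It passed with a pseudocount of 0.1 (adjusted p = 0.0388) or a filter of 5 TPM (0.0404), and reached 0.266 at most.

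Between the ICOS+ pools, Il17rb fell by 2.75 on the log2 scale in ACT IL21 (interval -3.56 to -1.95, adjusted p = 0.0104). The call was lost without ACT replicate 1 (adjusted p = 0.0738), ACT IL21 replicate 1 (0.1264) or replicate 2 (0.1421), in a range from 0.00647. Il17rb lies on the minus strand of chromosome 14 (29996135 to 30008896), and 3.8% of its exonic bases are also exons of Actr8 on the other strand. Actr8, which encodes a chromatin remodelling subunit, lay between 26.8 and 40.5 TPM in all libraries. The upstream window of Il17rb reaches an exon of Chdh, the choline dehydrogenase gene on the other strand, which was looked at for that reason after its values were seen. Chdh stood at 1.61 and 0.37 TPM in N, 15.5 and 10.7 in ACT, and 4.42 and 1.39 in ACT IL21. It rose in ACT by 2.88 on the log2 scale relative to N (adjusted p = 0.0249), which was not run under the alternatives.

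**Figure D2:**
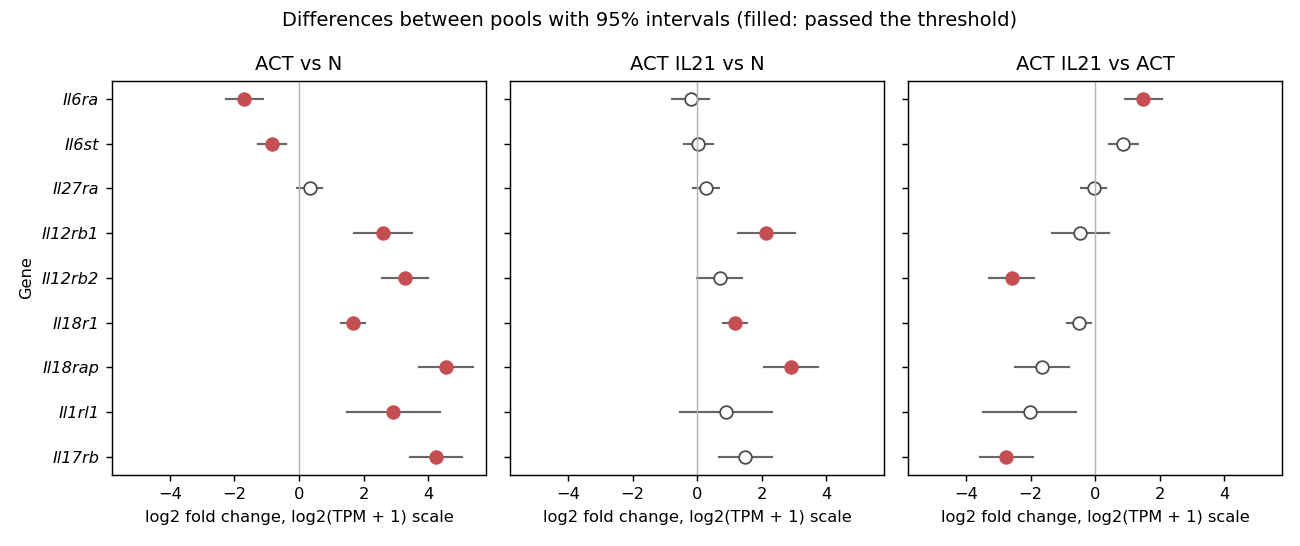
Log2 fold change on the log2(TPM + 1) scale for each member in the 3 comparisons, with 95% intervals from limma, filled where the adjusted p passed 0.05. Of the 9 members, 8 passed for ACT against N, 3 for ACT IL21 against N and 3 for ACT IL21 against ACT.

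Over the ACT IL21 against N comparison as a whole, 3 members rose (Il12rb1, Il18r1 and Il18rap), 0 fell and 6 did not pass. In the same limma fit 3.82% of all genes tested rose and 1.26% fell, and 4 of the 9 members had an unadjusted p under 0.05. The median log2 difference was 0.89 over the members and 0.10 over all genes. Without N replicate 1, 0 members passed and 4 had an unadjusted p under 0.05, and without ACT IL21 replicate 2 these counts were 0 and 5; without ACT IL21 replicate 1, 1 member passed. Both comparisons with N use the same N libraries, so their values are given side by side above and no likeness is read from them.

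The comparison of ACT IL21 with ACT asks how reporter-positive and reporter-negative cells differ among ICOS+ cells. Here 1 member rose (Il6ra), 2 fell (Il12rb2 and Il17rb) and 6 did not pass, while 0.796% of all genes tested rose and 1.15% fell. The median log2 difference was -0.51 over the members and 0.08 over all genes. In this limma fit 7 members had an unadjusted p under 0.05. With ACT replicate 1, ACT IL21 replicate 1 or ACT IL21 replicate 2 left out, 0 members passed, and 7, 5 and 6 had an unadjusted p under 0.05. Without ACT IL21 replicate 1, 0 of all genes tested passed, and 1631 had an unadjusted p under 0.05.

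Within each pool the 9 members fell into an order of TPM levels. In N the order was Il6st, Il6ra, Il27ra, Il18r1, Il12rb2, Il18rap, Il17rb, Il12rb1 and Il1rl1, and only the neighbours Il12rb2 and Il18rap overlapped between libraries. In ACT, Il18r1 was highest, followed by Il6st, Il18rap and Il27ra, whose libraries overlapped from neighbour to neighbour. Then came Il17rb and Il12rb2, which overlapped, Il6ra, and at the end Il12rb1 and Il1rl1, which overlapped. In ACT IL21, Il6st was again highest, then Il18r1, then Il6ra and Il27ra, which overlapped, and Il18rap. Il12rb1, Il17rb, Il12rb2 and Il1rl1 came last, and of these only Il17rb and Il12rb2 overlapped.

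Ratios of TPM between the chains of a receptor, taken within a library, do not depend on how libraries were scaled. They are described without a test, since 2 libraries against 2 cannot pass an exact one. The ratio of Il12rb2 to Il12rb1 was 3.40 and 3.58 in N, 3.56 and 4.52 in ACT, and 0.931 and 0.768 in ACT IL21. So ACT IL21 was the pool in which the shared chain was the more abundant of the pair. The ratio of Il18rap to Il18r1 was 0.0571 and 0.0778 in N, 0.637 and 0.631 in ACT, and 0.194 and 0.406 in ACT IL21. The accessory chain was the scarcer one in every library, and least scarce in ACT.

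The ratio of Il17rb to its partner Il17ra was 0.0166 and 0.0175 in N, 0.968 and 0.559 in ACT, and 0.0730 and 0.0711 in ACT IL21. Il17ra itself lay between 72.02 and 125 TPM and passed no test. The ratio of Il1rl1 to its partner Il1rap was 0.0917 and 0.0612 in N, 1.39 and 2.995 in ACT, and 0.0501 and 0.851 in ACT IL21. For the gp130 family, the ratio of Il6ra to Il6st was 0.575 and 0.384 in N, 0.349 and 0.187 in ACT, and 0.349 and 0.456 in ACT IL21. Both ACT libraries lay below both N libraries, while the ACT IL21 libraries overlapped those of N and, at 0.349, those of ACT. Il27ra to Il6st stood at 0.352 and 0.323 in N, 1.01 and 0.573 in ACT, and 0.382 and 0.417 in ACT IL21.

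**Figure D3:**
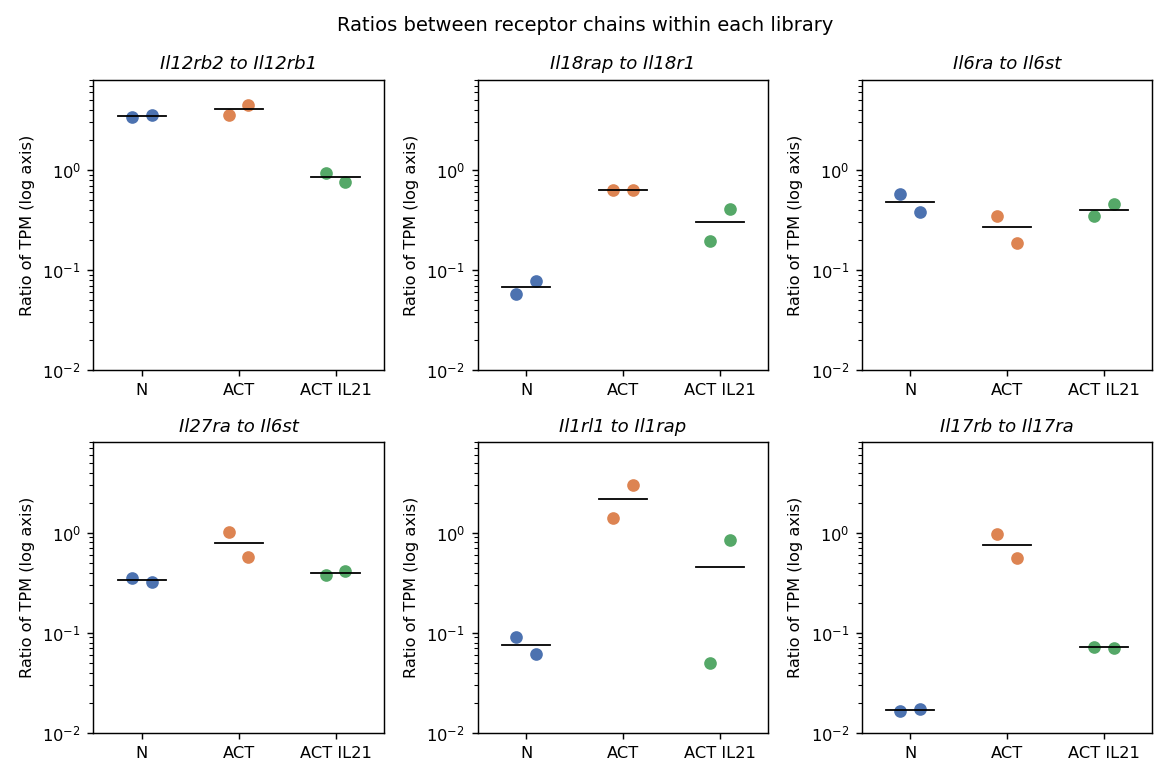
Ratio of the TPM of 2 chains of a receptor in each library on a log axis, with 1 point per library and a line at the mean of a pool. The Il12rb2 to Il12rb1 ratio lies below 1 in both ACT IL21 libraries and above 3 in the other 4, and the Il17rb to Il17ra ratio is highest in ACT.

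Il1rl1, Il18r1 and Il18rap sit side by side on chromosome 1 in the interleukin-1 receptor cluster, in which the genes Il1r2, Il1r1, Il1rl2, Il1rl1, Il18r1 and Il18rap lie on the plus strand over 477.6 kb. The gap between Il1rl1 and Il18r1 is 0.1 kb and that between Il18r1 and Il18rap 14.5 kb. Il1r1, the signalling receptor for IL-1, stood at 0.05 and 0.06 TPM in N, 1.59 and 5.49 in ACT, and 9.61 and 12.2 in ACT IL21. Il1r1 passed the filter only through ICOS+ libraries. Unlike the 3 members, it was highest in ACT IL21, where it rose relative to N by 3.49 on the log2 scale (adjusted p = 0.00977), or by 1.65 with a pseudocount of 5 and 6.14 with 0.1. That call was lost without N replicate 1 or 2 (adjusted p = 0.108 and 0.115) or ACT IL21 replicate 1 or 2 (0.1045 and 0.126). The decoy receptor gene Il1r2 stood at 0.52 and 0 TPM in N, 2.62 and 5.59 in ACT, and 0.38 and 1.91 in ACT IL21, and passed no test. Il1r1 differed between the ICOS+ pools by 1.53, with an adjusted p of 0.233. Il1rl2, the IL-36 receptor gene, lay between 3.74 and 10.1 TPM in all libraries and passed no test.

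**Figure D4:**
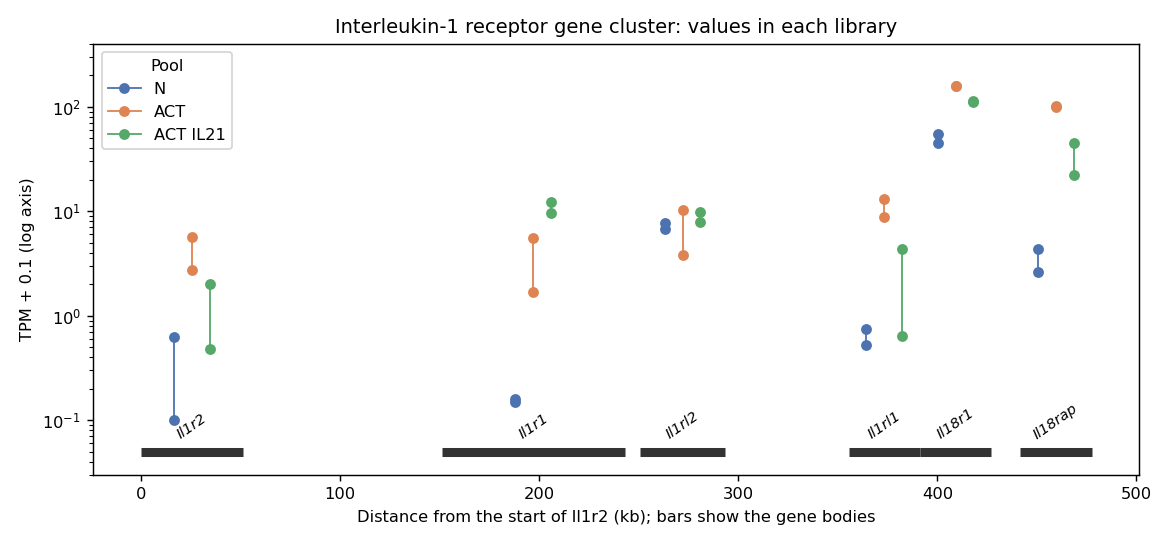
TPM plus 0.1 on a log axis for the 6 genes of the cluster, placed by distance in kb from the start of Il1r2, with 1 point per library and gene bodies as bars. Il1rl1, Il18r1 and Il18rap are highest in ACT, Il1r1 is highest in ACT IL21, and Il1rl2 overlaps among pools.

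Genes around the receptors were followed in lists by role. Beside the list counts below, 4.15% of all genes tested rose and 1.43% fell in ACT against N. These shares were 3.82% and 1.26% for ACT IL21 against N, and 0.796% and 1.15% for ACT IL21 against ACT. For ACT against N, the median log2 difference was 0.38 over the ligand genes tested, 0.20 over related receptor chains, 0.47 over JAK and STAT genes, 0.54 over MyD88 and Act1 genes and 0.30 over inhibitors, beside 0.02 over all genes. Of 13 ligand genes, 4 reached the filter, and Il6, Il27, Il12b, Il33, Il25 and Il11 were listed at 0 in all 6 libraries. The ligand gene that passed was Ebi3, a subunit of IL-27, at 0.40 and 0.28 TPM in N, 8.75 and 3.50 in ACT and 3.95 and 4.86 in ACT IL21. Ebi3 passed the filter only through ICOS+ libraries. It rose in ACT by 2.31 on the log2 scale (adjusted p = 0.0380), or by 1.02 with a pseudocount of 5 and 3.69 with 0.1. That call was lost in 8 alternatives, among them N replicates 1 and 2 (adjusted p = 0.2205 and 0.2588), ACT replicate 1 (0.123) and ACT IL21 replicates 1 and 2 (0.0927 and 0.0934) left out. Of 15 related receptor chains, 8 were tested; 1 of them, Il1r1, rose in ACT IL21 relative to N. In limma's other comparisons 0 of these chains passed, with 3 at an unadjusted p under 0.05 for ACT against N and 2 between the ICOS+ pools. Osmr and Cntfr, chains of gp130 family receptors, were listed at 0 throughout.

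All 6 JAK and STAT genes that carry the signals of these receptors were tested, and 2 rose in each comparison with N. Jak2, a kinase of the IL-12 receptor, stood at 79.3 and 87.7 TPM in N, 206 and 233 in ACT, and 159 and 153 in ACT IL21. It rose by 1.38 on the log2 scale in ACT (adjusted p = 0.00172), a call that held in every alternative run with adjusted p up to 0.0334, and by 0.90 in ACT IL21 (adjusted p = 0.0138). The latter was lost without N replicates 1 or 2 (adjusted p = 0.138 and 0.0968) or ACT IL21 replicates 1 or 2 (0.142 and 0.132), and with no intensity trend (0.0949). Stat4, the main STAT factor of IL-12, stood at 88.4 and 87.6 TPM in N, 147 and 152 in ACT, and 144 and 150 in ACT IL21. It rose by 0.76 in ACT (adjusted p = 0.0200) and by 0.74 in ACT IL21 (adjusted p = 0.0242). The ACT call was lost with any 1 of the 6 libraries left out (adjusted p between 0.0599 and 0.164), with no intensity trend (0.1205) and with the pools compared alone (0.0625). The ACT IL21 call was lost without an N or an ACT IL21 replicate (between 0.1495 and 0.1905), with no intensity trend (0.134) and with median-of-ratios scaling (0.0530).

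Of the 10 genes that carry MyD88 and Act1 signals, 1 rose in ACT relative to N. In limma's other comparisons 0 passed, with 2 at an unadjusted p under 0.05 for ACT IL21 against N and 1 between the ICOS+ pools. The gene that rose was Tab2, an adaptor of the kinase TAK1, at 156 and 139 TPM in N, 227 and 232 in ACT, and 193 and 184 in ACT IL21. Its log2 difference was 0.63 (adjusted p = 0.0403), and the call was lost in 11 alternatives, among them with any 1 of the 6 libraries left out (adjusted p between 0.0976 and 0.283) and under either other scaling (0.0528 and 0.0763). Of 7 inhibitors and receptor-shedding proteases, 1 rose in ACT IL21, relative to N and to ACT: Ptpn11, the gene of the phosphatase SHP2, which binds gp130. Ptpn11 stood at 28.5 and 26.0 TPM in N, 43.4 and 38.1 in ACT, and 81.3 and 98.6 in ACT IL21. It rose by 1.68 relative to N (adjusted p = 0.00327) and by 1.12 relative to ACT (adjusted p = 0.0305). The first call was lost without N replicate 2 (adjusted p = 0.0588) or ACT IL21 replicate 1 or 2 (0.0566 and 0.0744), the second with any 1 of the 6 libraries left out (between 0.082 and 0.262), with no filter (0.0625), with no intensity trend (0.1001) and with the pools compared alone (0.0936).

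Helper genes that lie downstream of such signals in T cells were counted too. Of 13, 9 were tested, among them the sort gene Il21, which is not counted here. Of the other 8, 7 rose in ACT and 7 in ACT IL21 relative to N, beside 4.15% and 3.82% of all genes tested. Among them, Il4, Tbx21 and Il10 lay under 1 TPM in N and passed the filter only through ICOS+ libraries. Their calls against N are no independent support. The count in ACT was 3 without N replicate 1 or 2, 4 without ACT replicate 1 and at least 5 in the other alternatives. In ACT IL21 it was 2 without N replicate 1 or 2, and 4 with a pseudocount of 5, no filter or no intensity trend. Without ACT IL21 replicate 1 or 2, limma called 0 of the 8, all of which had an unadjusted p under 0.05. Il4, a type 2 and follicular cytokine gene, stood at 0.51 and 0 TPM in N, 90.7 and 61.4 in ACT, and 15.8 and 11.5 in ACT IL21. It rose in ACT by 5.94 on the log2 scale (adjusted p = 0.000164), or by 3.92 with a pseudocount of 5, and held in every alternative run, with adjusted p up to 0.00561. Ifng, the gene of interferon gamma, stood at 0.58 and 4.83 TPM in N, 126 and 168 in ACT, and 65.5 and 94.6 in ACT IL21. It rose in ACT by 5.597 (adjusted p = 0.00111), a call that also held, with adjusted p up to 0.0195. Its size was 4.65 without N replicate 1, 6.54 without N replicate 2 and 4.35 with a pseudocount of 5.

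Tbx21, the gene of the type 1 factor T-bet, had values of 0 in N, 28.5 and 13.9 TPM in ACT and 4.23 and 6.54 in ACT IL21. Il10 was likewise listed at 0 in N, and stood at 25.9 and 7.86 TPM in ACT and 9.51 and 5.67 in ACT IL21. Between the ICOS+ pools, 2 helper genes were higher in ACT IL21, the sort gene Il21 and the follicular factor gene Bcl6, named after its values were seen, and 1, Il4, was lower. Apart from Il21 this count of 1 was 0 with any 1 of the 6 libraries left out, with 1 at an unadjusted p under 0.05 in limma, and also with no filter, no intensity trend or the pools compared alone. Bcl6 stood at 22.9 and 24.6 TPM in N, 24.0 and 19.9 in ACT, and 55.7 and 48.7 in ACT IL21. Il4 fell by 2.38 on the log2 scale in ACT IL21 relative to ACT (adjusted p = 0.0239), which was lost with any 1 of the 6 libraries left out (adjusted p between 0.0610 and 0.227), with a pseudocount of 0.1 (0.235) and with no filter (0.0764). Il17a was listed at 0 in all 6 libraries.

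Markers of other cells moved with some of the members. Natural killer, NKT and regulatory T cells are known to carry several of these receptors, and many NKT and regulatory T cells carry CD4. The 11 natural killer and NKT markers summed to 56.8 to 62.7 TPM in N, 705 to 727 in ACT and 75.5 to 81.5 in ACT IL21. This order of pools, with ACT highest and no overlap, was also that of Il12rb1, Il12rb2, Il18r1, Il18rap and Il17rb. Of all genes tested, 25.2% lay wholly above N in ACT, and 17.3% lay wholly below ACT in ACT IL21. In ACT IL21, 31.5% lay wholly above N. The share of all genes with the whole order was not counted. Most of the ACT sum came from Xcl1, Klrb1c and Cd160. Not all markers of the list followed it. Ncr1, at 0 and 1.06 TPM in ACT, did not reach the filter, and Eomes and Gzma passed in no comparison. Of the 10 such markers tested, 7 rose in ACT relative to N, beside 4.15% of all genes tested. In ACT IL21, 7 fell relative to ACT, beside 1.15% of all genes. Relative to N, 1 rose and 1 fell there, beside 3.82% and 1.26%. With a library left out, the first count ranged from 4 (without N replicate 1) to 8 and the second from 0 to 3. The count of 0 was without ACT IL21 replicate 1, where 9 had an unadjusted p under 0.05 in limma. Zbtb16, a defining factor of NKT cells, named after its values were seen, stood at 0 and 0.18 TPM in N, 40.1 and 27.3 in ACT, and 5.91 and 1.70 in ACT IL21. Zbtb16 and Klrc1, under 1 TPM in N, passed the filter only through ICOS+ libraries. Klre1, at 0 in N and ACT IL21, passed it only through ACT. The calls of these markers are no independent support.

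The 6 regulatory T cell markers summed to 129 to 146 TPM in N, 415 to 427 in ACT and 102 to 111 in ACT IL21. Most of the ACT IL21 sum was Ikzf2, at 18.9 and 28.8 TPM in N, 173 and 211 in ACT, and 85.1 and 90.2 in ACT IL21. Foxp3 stood at 22.2 and 19.4 TPM in N, 65.4 and 51.9 in ACT, and only 1.57 and 2.69 in ACT IL21. Gpr83, at 17.1 and 12.4 TPM in N and 12.9 and 6.42 in ACT, was not highest in ACT. These 3 genes were named after their values were seen. Of the 6, 3 rose in ACT relative to N, beside 4.15% of all genes tested. In ACT IL21, 4 fell relative to ACT, beside 1.15%. Relative to N, 4 fell there, Foxp3 among them, and 1, Ikzf2, rose, beside 1.26% and 3.82%. With any 1 library left out, 1 rose in ACT relative to N. Without N replicate 1 or 2, 1 fell in ACT IL21 relative to N, and without ACT IL21 replicate 1 or 2 this was 2. Relative to ACT, 2 fell with any library but ACT IL21 replicate 1 left out. Without that library 0 passed in limma and 5 had an unadjusted p under 0.05. The part of these cells in the values of Il12rb1, Il12rb2, Il18r1, Il18rap, Il1rl1 and Il17rb was not tested. The 7 T cell core genes summed to 3418 to 3889 TPM in N, 3830 to 4505 in ACT and 5181 to 5189 in ACT IL21. Of the 7, 2 were higher in ACT IL21 than in N, Cd28 and the sort gene Cd4. The 1 that was higher than in ACT was Cd4, which as a sort gene is no finding. For ACT against N limma called 0 of the 7, with 2 at an unadjusted p under 0.05, Cd28 higher and Cd4 lower.

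Mast cells and basophils, which carry the IL-33 receptor, had a marker sum between 1.75 and 4.57 TPM over all libraries, with Fcer1a and Mcpt8 listed at 0 throughout. The B cell sum lay between 0.98 and 2.60 TPM, with Pax5 listed at 0. Myeloid and dendritic markers summed to 28.9 to 34.2 TPM in N, 53.8 to 69.6 in ACT and 49.2 to 53.2 in ACT IL21. Nearly all of that was Cst3, a gene that many cells express, and Cd14, Siglech and S100a8 were listed at 0. The CD8 markers summed to 19.0 to 27.0 TPM in N, 5.59 to 7.41 in ACT and 3.41 to 9.88 in ACT IL21. Nearly all of that was Cd8b1. Cd8a lay at 0.36 and 0.30 TPM in N and at most at 0.08 in the other pools.

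**Figure D5:**
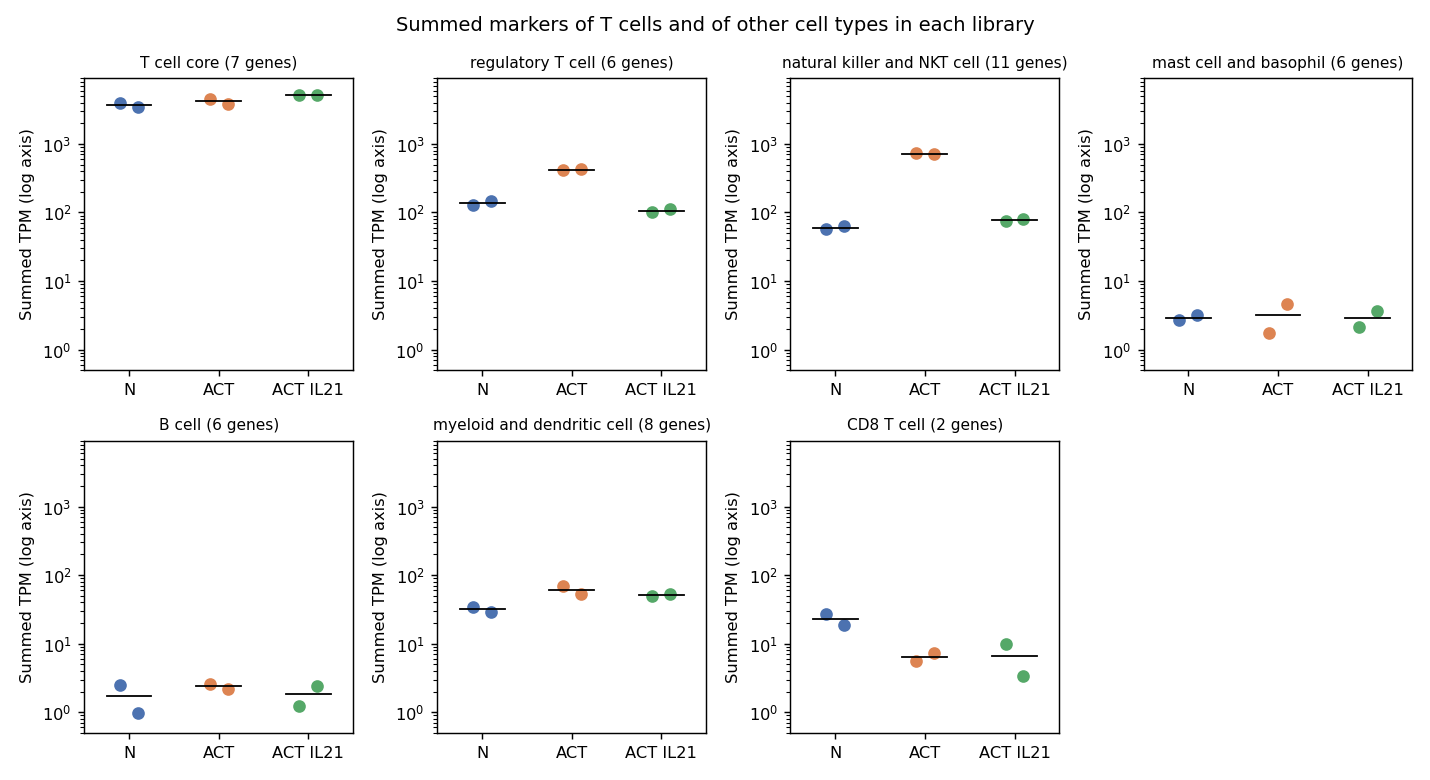
Summed TPM of 7 marker lists on a log axis, with 1 point per library and a line at the mean of a pool. The natural killer and NKT sum is 705 to 727 TPM in ACT against at most 81.5 in the other pools, the regulatory T cell sum is also highest in ACT, and mast cell and B cell sums stay below 5 TPM.

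For each member, the genes most alike were those with the smallest root mean square difference of log2(TPM + 1) values, centred on their means over the 6 libraries, among 8525 genes with a mean of at least 5 TPM. With 3 pools of 2 libraries such likeness says little beyond the pool levels, and it is a description with no test. The closest to Il6ra were Cyp2s1, a cytochrome P450 gene, at 0.149 and Tcf7, the gene of the factor TCF1, at 0.154. Tcf7 stood at 1208 and 961 TPM in N, 409 and 378 in ACT, and 997 and 1046 in ACT IL21. The closest to Il6st was Rasa3 (0.0943), and the closest to Il27ra were Exoc2 (0.0371) and Gnas (0.0422).

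For Il12rb1 they were Ntng2 (0.168) and Glrx (0.191), and for Il12rb2 they were Cd160 (0.224), which is also in the natural killer list, and the chemokine receptor gene Ccr8 (0.240). Ccr8 stood at 0.61 and 0.56 TPM in N, 16.9 and 18.8 in ACT, and 2.89 and 2.46 in ACT IL21. Il18r1 had Sec11c (0.113) and Btbd11 (0.125). Il18rap had Gzmb (0.296), the granzyme B gene, and Bhlhe40 (0.330), a transcription factor gene that stood at 4.49 and 5.94 TPM in N, 194 and 165 in ACT, and 62.3 and 75.8 in ACT IL21. Il1rl1 had Lamc1 (0.268) and Ly6g5b (0.440). The closest to Il17rb were Chsy1 (0.182) and Id2 (0.329), the gene of an inhibitor of E proteins, at 50.7 and 54.9 TPM in N, 860 and 693 in ACT, and 210 and 159 in ACT IL21.

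Among pairs of members the smallest such differences were 0.46 between Il12rb2 and Il17rb, 0.480 between Il12rb1 and Il18r1, and 0.485 between Il6ra and Il6st. The chains of the IL-12 receptor differed from each other by 0.895 and those of the IL-18 receptor by 1.23. This measure counts the size of a change as well as its shape. By Pearson's r over the 6 libraries, which leaves the size out, Il18r1 and Il18rap had the highest value of the pairs (0.9838). Chains of different receptors lay close behind, Il12rb2 and Il17rb at 0.9825 and Il12rb1 and Il18r1 at 0.9766. Il12rb1 and Il12rb2 stood at 0.777.

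The other members lie at the following places in GRCm38, all annotated as protein-coding. Il6ra spans 89864059 to 89913196 on the minus strand of chromosome 3, where an antisense RNA gene, Gm42809, shares 2.8% of its exonic bases. Il6st spans 112464070 to 112510086 on the plus strand of chromosome 13. Il27ra spans 84030294 to 84042589 on the minus strand and Il12rb1 70808449 to 70821424 on the plus strand of chromosome 8. On chromosome 1, Il1rl1 spans 40429570 to 40465415, Il18r1 40465552 to 40500854 and Il18rap 40515362 to 40551705.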

How the data were processed

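The values are gene-level TPM deposited by the authors, 1 column for each of the 6 libraries. Per the submitters' processing notes, the tools were Trimmomatic, Bowtie and RSEM and the build GRCm38, with no versions. RNA was extracted with a Qiagen kit, poly-A enriched and amplified with a Nugen Ovation kit, per the labels' protocols. Which annotation release and strand setting were used is not given in the sources used here. Ambiguous reads are split by estimation in RSEM, which makes overlapping genes uncertain. TPM holds no read number, so depth is unknown and no counting interval is given. Of 38355 entries, the 139 that repeat a symbol were added to the entry they repeat.

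Values were compared as log2(TPM + 1), which understates the change of low genes, with limma 3.58.1 (R 4.3.3). All 6 libraries entered 1 model with a term for the pool and an intensity trend (3 residual and 4.841 prior degrees of freedom), with two-sided tests. The filter was 1 TPM in 2 or more libraries, which left 13311 genes, with Benjamini-Hochberg adjustment over them and a threshold of 0.05. The script was tested on simulated data. The labels do not tie the 2 libraries of any pool to separate animals, so p-values measure the spread between libraries, which may be technical.

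The members and lists were chosen with earlier results of these data known. Named genes were the members, the sort markers, up to 4 genes of a pathway list that passed in any comparison, the 2 genes most like each member and the genes of the interleukin-1 receptor cluster. A gene that this rule names is not reported here. Alternatives changed the pseudocount, filter, scaling, spread estimate, libraries in the fit and replicate block, and left out each library in turn; those on pathway genes and on counts over the helper and marker lists were added after the data were seen. With a library left out, the lone library of its pool is assumed to vary like the others. Gene positions are from GENCODE M21. Protein sequences were not used here. Figures were drawn with matplotlib 3.10.9.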

Additional observations from a re-analysis of the deposited data

How the results depend on the processing

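Of the 27 log2 differences of members, each under 15 alternatives, 3 changed sign, all of them uncalled. Il6st in ACT IL21 against N was -0.0734 with median-of-ratios scaling and -0.0603 with quantile normalization, and -0.0228 to 0.0941 with a library left out. With a library left out, Il6ra in ACT IL21 against N ranged from -0.5042 to 0.1091 and Il27ra in ACT IL21 against ACT from -0.1858 to 0.0764. The counts of all genes past the threshold were 743 for ACT against N, 677 for ACT IL21 against N and 259 for ACT IL21 against ACT. With no filter on low values they were 469, 410 and 124, with more genes tested. With only the compared pools in the fit, they were 417, 715 and 92; the cause was not tested. With a library left out they ranged from 205 to 526, 75 to 728 and 0 to 81, and the counts of members from 4 to 7, 0 to 3 and 0 to 2. At an unadjusted p under 0.05, limma without ACT IL21 replicate 1 had 1631 genes and 5 members in the last comparison. Libraries share only a number between pools: deviations from the pool mean correlated at 0.373 between N and ACT, 0.02 between N and ACT IL21 and -0.003 between ACT and ACT IL21, across 9210 genes. The fit with the replicate block called 784, 732 and 284 genes and 8, 3 and 4 members. It added the call for Il18rap between the ICOS+ pools (adjusted p = 0.03593). Quantile normalization moved the median log2 difference of all genes in ACT IL21 against N from 0.10 to -0.05. Before that step, the Il6st difference of 0.04 lay below the median of 0.10. The unknown read depth limits what the values under 2 TPM can show, above all for Il1rl1.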
